A study of Homo sapiens with 24 samples.

Results

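Transcript levels were compared between MOLT4 cells kept for 4 h and for 1 h with the solvent DMSO alone, which is the change that these cells undergo in culture when no degrader is given. The comparison was defined by its samples, the DMSO libraries of both times, and holds 8 of the 24 libraries of the series and all 9822 genes of the deposited count table. MOLT4 is an established human T-cell acute lymphoblastic leukaemia line, grown here in RPMI1640 medium with fetal bovine serum, so each group stands for 1 cell line. Besides DMSO for 1 h and DMSO for 4 h, the text uses DMSO for 8 h and SK-3-91, a degrader of many kinases per the labels, for 1 h and for 4 h. Each of these 5 groups held 4 libraries, and the labels used here give no concentration of DMSO or SK-3-91. The labels do not say whether the 4 libraries of a group are separate cultures. The p-values therefore reflect library-to-library spread alone, part or all of which may be technical. Each library comes from cells harvested at its own time, so that time with DMSO, time since handling and age of the medium cannot be told apart.

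Counted reads averaged 14.1 ± 0.126 megareads at 1 h and 14.4 ± 0.117 megareads at 4 h (SD, n = 4 each). The difference of 0.285 megareads had an exact two-sided permutation p = 0.0571, where 0.0286 is the smallest p that 4 against 4 libraries allow. Of 38 T-lineage markers 36 were measured, and CD3E, a subunit of the T-cell receptor complex, stood at 945 CPM at 1 h and 953 CPM at 4 h (CPM, counts per megaread of the TMM-scaled library). Among genes tested were 0 of 11 myeloid markers, 0 of 12 erythroid and megakaryocyte markers, 1 of 8 epithelial markers (ESRP1) and 1 of 10 fibroblast or endothelial markers (PECAM1). Of 11 B-lineage markers 4 were tested, with a summed level of 296 to 329 CPM at 1 h and 318 to 340 CPM at 4 h. The first principal component of the 12 DMSO libraries held 48.2% of their variance and ordered the groups by time, and the second held 20.6%.

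Hypoxia-inducible factors are degraded while oxygen is plentiful and, when it falls, switch on genes for blood vessel signals, glucose handling and survival. The heat-shock factor HSF1 drives chaperone genes when unfolded protein builds up in the cytosol, and SREBP2 drives sterol synthesis genes when membrane sterol falls. In the cell cycle, E2F factors drive replication genes at the entry into S phase, and a later wave of genes for mitosis depends on the MuvB complex, which binds a short element near their start sites.

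In the comparison of 4 h with 1 h, most changes were small and spread over many genes. Of 9822 genes, 1573 (16%) were higher and 1877 (19.1%) lower at 4 h, together 35.1%, by edgeR's quasi-likelihood test with Benjamini-Hochberg adjusted p under 0.05. The median log2 fold change was 0.245 among genes called higher and -0.255 among genes called lower, and across all genes the 5th and 95th percentiles were -0.371 and 0.314. A change of at least 1.5-fold was reached by 81 called genes in the upward direction (0.825%) and by 137 in the downward direction (1.39%). At least 2-fold changes numbered 9 higher (0.0916%) and 12 lower (0.122%). All 4 libraries at 4 h lay above all 4 at 1 h for 1603 genes (16.3%) and below them for 1797 genes (18.3%). When the null hypothesis was a change of up to 1.5-fold, the test called 19 higher and 21 lower.

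**Figure D1:**
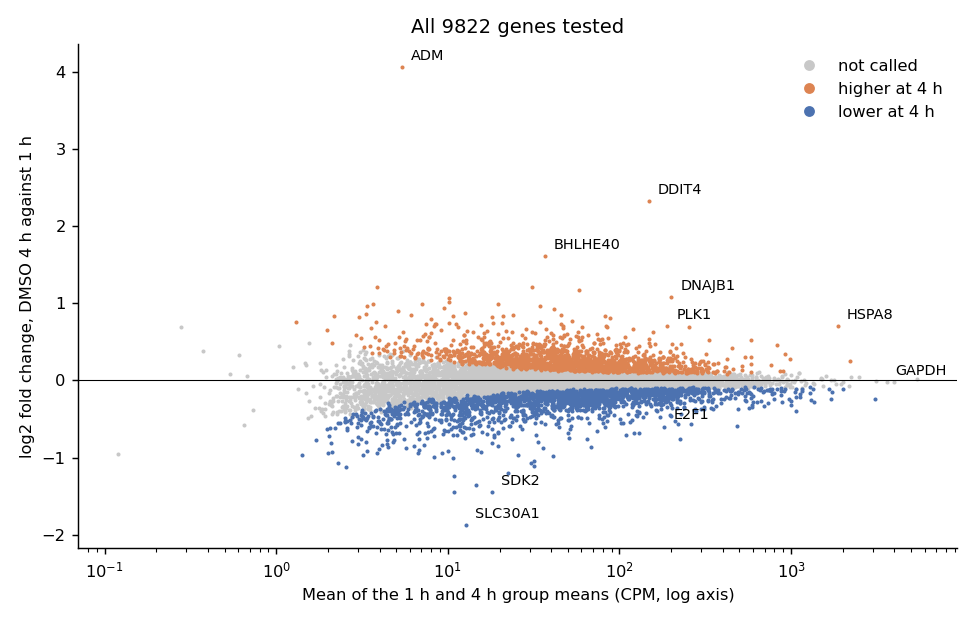
log2 fold change of DMSO 4 h against DMSO 1 h (vertical axis) against the mean level of both groups in CPM (horizontal log axis) for each of the 9822 genes, coloured by call at an adjusted p under 0.05. Most points lie between -0.371 and 0.314, while ADM, DDIT4 and BHLHE40 stand far above and SLC30A1 and SDK2 far below.

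The largest increase was in ADM (Entrez gene 133), which encodes the secreted vasodilator peptide adrenomedullin. Its level was 0.644, 0.585, 0.781 and 0.39 CPM in the libraries at 1 h and 7.26, 9.51, 12.1 and 11.9 CPM at 4 h. The groups did not overlap, and at 1 h the values rested on only 6 to 12 counted reads per library against 116 to 194 at 4 h. The log2 fold change was 4.06 ± 0.22 (SE, n = 4 per group; edgeR adjusted p = 1e-17). DDIT4, a stress-induced inhibitor of the growth kinase mTORC1, stood at 51.3, 51.6, 45.1 and 48.8 CPM at 1 h and at 227, 251, 260 and 250 CPM at 4 h (log2 fold change 2.33 ± 0.07). Every 4 h library was above every 1 h library, but 41.2% of the exon bases of DDIT4 lie in exons on the opposite strand, so its value is uncertain. BHLHE40, a transcriptional repressor that takes part in the clock and in hypoxia responses, had 18.7, 18.5, 17.5 and 17.9 CPM at 1 h and 47.9, 56.3, 59.7 and 58.3 CPM at 4 h (1.61 ± 0.09). Replicate 1 was the lowest of the 4 h libraries for all 3 genes, and each was still far above the 1 h group in it.

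Signalling regulators made up much of the remaining top of the ranking. RGS16, which shortens G-protein signalling, rose from 2.32 to 5.39 CPM (1.21 ± 0.17), and DTX1, a Notch pathway ubiquitin ligase, from 18.7 to 43.3 CPM (1.21 ± 0.06). KLF10, a TGF-beta-inducible repressor, had 39.2, 34.4, 33.9 and 35 CPM at 1 h and 79, 82, 81.5 and 78.2 CPM at 4 h, again without overlap (1.17 ± 0.06). NR4A1 and EGR1, transcription factors of the immediate-early class, rose by 1.07 ± 0.12 and 1.01 ± 0.10 on the log2 scale. CD69, an early activation antigen of T cells, went from 13.2 to 26.2 CPM (0.98 ± 0.08). KCTD21 rose from 4.75 to 9.43 CPM (0.99 ± 0.10), with 28.7% of its exon bases in exons on the opposite strand and therefore uncertain. The chaperone gene DNAJB1 (1.08) and the angiogenic factor gene VEGFA (0.97) complete the 12 largest increases and are described with their groups. Every one of these 12 was separated between the groups, as the rule for naming them required. Genes outside that rule, such as MIR210HG described below, can have larger changes than some of the 12.

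The largest decrease was in SLC30A1 (Entrez gene 7779), which exports zinc from the cell and is induced by the zinc sensor MTF1. Its level was 21.4, 20.7, 19.5 and 18.5 CPM at 1 h and 5.51, 5.48, 4.94 and 5.87 CPM at 4 h (log2 fold change -1.88 ± 0.09, edgeR adjusted p = 6.4e-19). The groups were 3.67-fold apart, without overlap. MT1G, a metallothionein that binds zinc, was the only other called gene of the 5 measured in that list and went up, from 4.28 to 6.63 CPM, although 22.8% of its 32-base words also occur in other genes, so that its value is uncertain. SDK2, a cell adhesion molecule, had 24.9, 26.9, 28.1 and 25.7 CPM at 1 h and 9.07, 9.45, 10 and 10.1 CPM at 4 h (-1.45 ± 0.08). FBXO32, a FOXO-induced ubiquitin ligase, had 16.7, 16.1, 15.6 and 15 CPM at 1 h and 5.76, 5.98, 5.75 and 5.8 CPM at 4 h (-1.44 ± 0.10). Both genes had narrow groups that lay well apart.

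SLC7A11, the cystine importer, fell from 20.9 ± 3.37 to 8.15 ± 1.3 CPM (SD, n = 4; log2 fold change -1.36). CREBRF, a regulator of the CREB3 stress factors, changed by -1.23, and RELL1 by -1.20, the latter uncertain with 21.5% of its exon bases in opposite-strand exons. PIM1, a survival kinase induced by cytokine signalling, had 42.8, 44.4, 41.1 and 44.8 CPM at 1 h and 21.5, 19, 19.4 and 20.2 CPM at 4 h (-1.11 ± 0.07). Those groups were far apart relative to their spread. ID3, which blocks DNA binding by E proteins, changed by -1.07, the p53 target ZMAT3 by -1.05 and KLF5 by -1.01. PPFIA4, a liprin family scaffold gene, changed by -1.0 and TSPOAP1 by -0.97. In PPFIA4 the lowest 1 h library, replicate 2 at 7.61 CPM, came close to the highest 4 h library at 6.63 CPM.

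**Figure D2:**
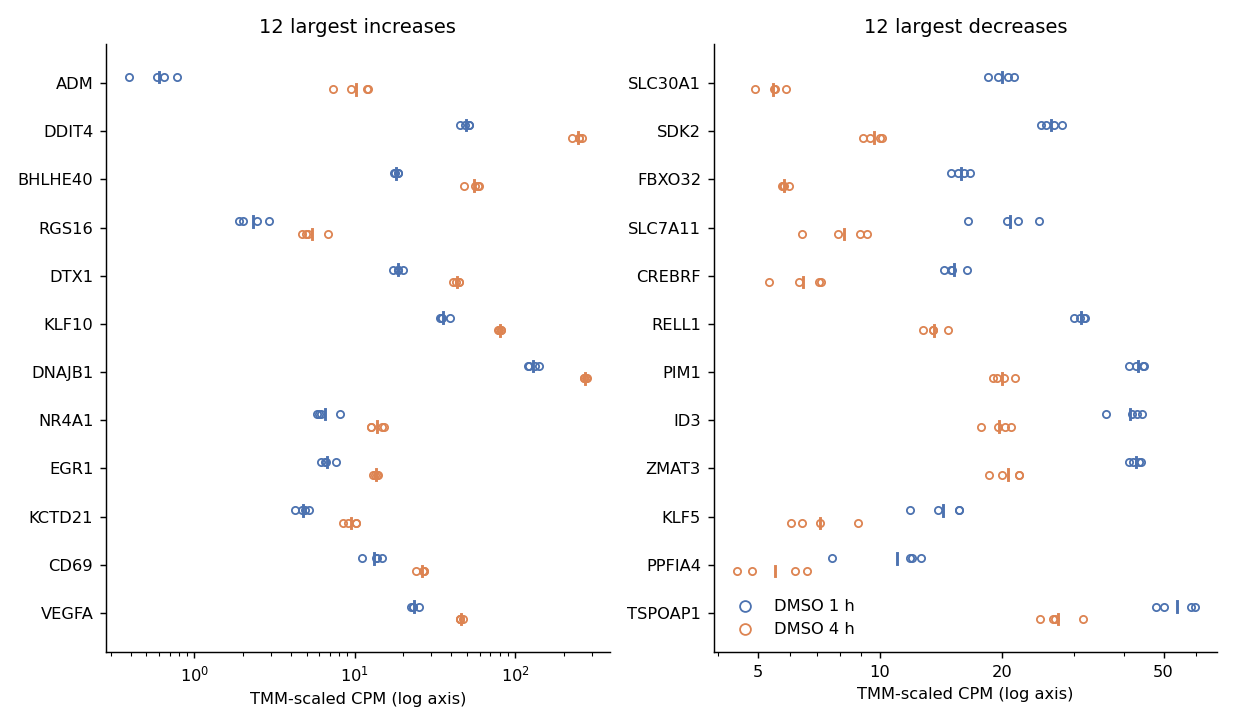
Level in CPM (log axes) of the 12 genes with the largest increase (left) and the 12 with the largest decrease (right), with an open circle for each library of DMSO 1 h and DMSO 4 h and a bar at each group mean. The naming rule took only genes whose 2 groups did not overlap, so the separation was required, and ADM starts below 0.8 CPM in every 1 h library.

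Genes of the cell cycle moved in opposite directions by phase. Of 55 measured genes that act in G2 and mitosis, 46 were higher at 4 h and 0 lower (83.6% against 16% higher over all genes), with a median log2 fold change of 0.28. The steepest members were PIF1, a DNA helicase (0.75), KIF20A, a kinesin of cytokinesis (0.71), the mitotic kinase PLK1 (0.70) and CENPA, the centromeric histone (0.70). PLK1 had 145, 151, 133 and 150 CPM at 1 h and 232, 240, 235 and 234 CPM at 4 h. CENPA had 34.3, 36.9, 34.8 and 36.9 CPM at 1 h and 56.4, 57.4, 57.2 and 61.8 CPM at 4 h. Both were separated between the groups and tight within them. CCNB1, the cyclin that drives entry into mitosis, rose from 124 ± 8.97 to 174 ± 3.49 CPM (SD, n = 4; log2 fold change 0.48 ± 0.04). AURKA (0.69), CCNF (0.63) and HMMR (0.58) rose too. The 9 members not called were MAD2L1, CENPM, BUB3, CKS1B, TTK, KIF11, CENPF, FOXM1 and MKI67, with changes from -0.01 to 0.09. MKI67, the proliferation marker, had 1074 ± 125 CPM at 1 h and 1143 ± 74.7 CPM at 4 h (adjusted p = 0.23). The summed level of the 55 genes was 8396 to 8550 CPM at 1 h and 10110 to 10350 CPM at 4 h. In bulk RNA a larger share of cells in a phase and more RNA per such cell cannot be told apart.

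Of 49 measured genes of G1/S and DNA replication, 36 were lower and 1, GINS1, was higher (73.5% against 19.1% lower over all genes), with a median of -0.22. The steepest falls in the list were in genes of E2F family transcription factors. E2F2 had 150, 142, 147 and 156 CPM at 1 h and 91.6, 90.2, 91.5 and 97.2 CPM at 4 h (-0.68 ± 0.04), and E2F7, a repressor of the same family, had 163, 155, 166 and 161 CPM at 1 h and 107, 100, 96.8 and 97.7 CPM at 4 h (-0.68 ± 0.06). E2F1 had 213, 212, 227 and 229 CPM at 1 h and 143, 145, 145 and 148 CPM at 4 h (-0.60 ± 0.04). In each the 1 h libraries were all above the 4 h libraries. CDC6, which loads the replicative helicase, fell by 0.57 on the log2 scale, DTL by 0.53 and the cyclin gene CCNE1 by 0.30. Helicase subunits moved less, MCM4 by -0.33, MCM3 by -0.27 and MCM7 by -0.17, and so did the sliding clamp gene PCNA (-0.28). Against that 1.5-fold null hypothesis 0 members of either cell cycle list were called.

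Start-site sequence is shown for members of both lists because the known elements of these programmes lie close to the start. RefSeq windows of 250 bases before the start (GRCh38.p14, matched by Entrez gene ID, since the counts were made on hg19) were held for 8103 of the 9822 genes. The word TTTGAA, the cell cycle homology region bound by MuvB, was searched on both strands and occurred in 24 of 45 G2/M windows (53.3%) against 660 of all 8103 (8.1%). The words TTTCGCGC and TTTGGCGC, forms of the E2F site, occurred on either strand in 8 of 37 windows of the G1/S list (21.6%) against 1.8% of all. Of all 143 genes with either word, 26.6% were called lower at 4 h, against 18.5% of all genes with a window. A match is a description of letters, not of binding, and among all 660 genes with TTTGAA the median log2 fold change was 0.007, close to the -0.009 of all genes with a window, while 22.9% of the 660 were called higher against 16.2% of all genes with a window. The windows of CENPA (chr2:26785806-26786055, plus strand), PIF1 (chr15:64825648-64825897, minus strand) and E2F1 (chr20:33686386-33686635, minus strand) are given 5′ to 3′ on the strand of the gene, ending at the last base before the start, with the matched word in capitals. It begins 18 bases before the start in CENPA and 20 bases before it in PIF1 and in E2F1.
CENPA: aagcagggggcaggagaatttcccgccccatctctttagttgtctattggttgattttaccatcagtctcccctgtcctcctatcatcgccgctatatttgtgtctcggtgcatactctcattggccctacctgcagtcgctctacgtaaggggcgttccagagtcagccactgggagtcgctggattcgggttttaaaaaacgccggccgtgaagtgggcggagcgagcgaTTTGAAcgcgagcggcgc
PIF1: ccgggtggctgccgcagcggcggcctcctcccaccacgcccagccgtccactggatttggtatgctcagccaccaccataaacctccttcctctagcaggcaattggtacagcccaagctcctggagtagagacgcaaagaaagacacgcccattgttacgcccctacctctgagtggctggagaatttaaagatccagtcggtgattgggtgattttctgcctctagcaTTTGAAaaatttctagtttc
E2F1: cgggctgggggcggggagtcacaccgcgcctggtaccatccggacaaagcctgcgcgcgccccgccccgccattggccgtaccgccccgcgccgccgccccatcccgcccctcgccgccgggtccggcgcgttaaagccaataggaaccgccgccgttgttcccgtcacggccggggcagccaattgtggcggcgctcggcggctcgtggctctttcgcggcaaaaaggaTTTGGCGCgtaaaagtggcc

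Most cytosolic heat-shock genes were higher at 4 h. Of 21 measured, 14 were higher (66.7% against 16% of all genes) and 2 lower (9.52% against 19.1%), with a median of 0.25. DNAJB1, a co-chaperone of HSP70, had 141, 133, 121 and 120 CPM at 1 h and 267, 275, 279 and 269 CPM at 4 h (1.08 ± 0.05), with no overlap. DNAJB4, of the same family, went from 6.57 to 12.5 CPM (0.93 ± 0.09), and CHORDC1, an HSP90 co-chaperone, from 32.6 to 58.5 CPM (0.85 ± 0.06). HSPA8, the constitutive HSP70, went from 1423 to 2323 CPM (0.71), but 20.6% of its 32-base words occur elsewhere in the transcriptome, so it is uncertain. HSPH1 (0.69), the collagen chaperone SERPINH1 (0.64), DNAJA1 (0.42), AHSA1 (0.33), BAG3 (0.29) and STIP1 (0.28) rose too. The factor gene HSF2 (-0.17) was among those that fell. HSF1 itself had a change of 0.02 (adjusted p = 0.73), and HSP90AA1 and HSP90AB1, both uncertain through shared sequence, 0.05 and 0.04. At 8 h, against the same 1 h libraries, so that both comparisons share those samples, 18 of the 21 were higher and 1 lower, with a median of 0.50. Over all genes 22.6% were called higher and 24.7% lower at 8 h (47.3% together).

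The heat-shock element core GAANNTTC, a word that reads the same on both strands, occurred in 6 of 18 windows of the list (33.3%) against 315 of 8103 (3.9%). Of those 315 genes, 21.6% were called higher at 4 h, against 16.2% of all genes with a window. CHORDC1 is shown because it holds 3 such words, which begin 205, 60 and 50 bases before the start (chr11:90223050-90223299, minus strand, GRCh38.p14, RefSeq, 5′ to 3′, words in capitals).
CHORDC1: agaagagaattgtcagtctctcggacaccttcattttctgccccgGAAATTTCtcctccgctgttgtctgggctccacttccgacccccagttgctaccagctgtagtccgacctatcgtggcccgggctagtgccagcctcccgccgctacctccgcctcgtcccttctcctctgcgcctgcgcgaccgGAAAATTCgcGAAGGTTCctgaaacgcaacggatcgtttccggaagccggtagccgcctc

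Most sterol synthesis genes were higher too, by smaller amounts. Of 24 measured, 16 were higher (66.7% against 16% of all genes) and 2 lower (8.33% against 19.1%), with a median of 0.18. MSMO1, a C4 sterol demethylase, had 43.6, 39.6, 34.8 and 38.5 CPM at 1 h and 65.3, 71.6, 68.4 and 62.3 CPM at 4 h (0.77 ± 0.06). SQLE, squalene epoxidase, had 194, 193, 193 and 187 CPM at 1 h and 268, 266, 269 and 260 CPM at 4 h (0.47 ± 0.04). Neither gene overlapped between the times. HMGCS1 (0.42), IDI1 (0.32) and MVK (0.31) rose, while TMEM97 and LPIN1 each fell by 0.18. SREBF2, which encodes SREBP2, was at 362 and 359 CPM (-0.01, adjusted p = 0.87). The genes of fatty acid synthesis and LXR output went the other way where they were called: 6 of 14 were lower (42.9% against 19.1%) and 0 higher, with 4 lower under RLE factors or without scaling factors, among them the sterol exporters ABCA1 (-0.33) and ABCG1 (-0.20) and the factor gene SREBF1 (-0.15).

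**Figure D3:**
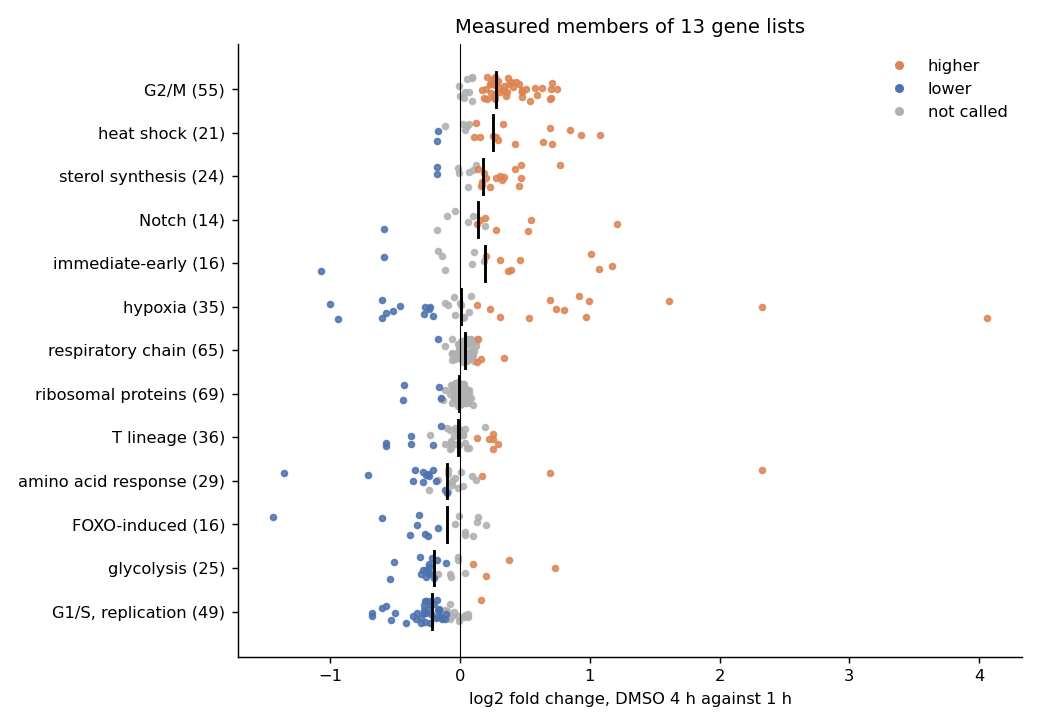
log2 fold change of DMSO 4 h against DMSO 1 h for each measured member of 13 gene lists (number measured in brackets), with a black bar at each list's median and colours for the call. Members of the G2/M list lie at or right of 0 apart from MAD2L1 at -0.01, those of the G1/S list mostly left of it, and the hypoxia list reaches from -1.0 to 4.06.

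The hypoxia list was divided at 4 h. Of 35 measured HIF-induced genes, 13 were higher (37.1% against 16% of all genes) and 12 lower (34.3% against 19.1%), with a median of 0.01. The risers were led by ADM, DDIT4 and BHLHE40 and included VEGFA, which had 22.4, 23, 23.1 and 25.2 CPM at 1 h and 45.2, 45.2, 47.1 and 45.5 CPM at 4 h (0.97 ± 0.08). They also included MIR210HG, the host transcript of a hypoxia microRNA (0.99), JMJD6 (0.92), the glycolytic regulator PFKFB3 (0.80), STC2 (0.69) and the mitophagy gene BNIP3 (0.53). ANKRD37 (0.74) was another, uncertain with 35.2% of its exon bases in opposite-strand exons. MIR210HG did not meet the level or separation condition set for the 12 largest increases. The genes that fell are known HIF targets too. They were led by PPFIA4 (-1.0) and CA9 (-0.94, uncertain with 38.5% of exon bases opposite another gene), followed by PFKFB4 and RORA (-0.60 each), the oxygen sensor gene EGLN3 (-0.57), NDRG1 (-0.52) and BNIP3L (-0.46). EGLN3 had 4.25, 5.33, 4.62 and 5.2 CPM at 1 h and 2.94, 2.9, 3.81 and 3.44 CPM at 4 h, low levels that did not overlap. HIF1A, which encodes the oxygen-regulated subunit, was at 194 and 182 CPM (-0.09, adjusted p = 0.10).

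Genes of glucose uptake and glycolysis were mostly lower. The transporter genes SLC2A1 (0.38) and SLC2A3 (0.73, uncertain with 28.9% of its words shared), the first enzyme gene HK2 (0.20) and the lactate carrier gene SLC16A1 (0.10) were the 4 of 25 that rose, 16% as among all genes. A further 15 fell (60% against 19.1% of all genes), and the median was -0.20. The 15 included the phosphofructokinase gene PFKL (-0.30), ENO1 (-0.24), LDHA (-0.24), PKM (-0.26), TPI1 (-0.22) and PGK1 (-0.18), the glycogen branching enzyme gene GBE1 (-0.51) and SLC16A3, the lactate exporter (-0.54). SLC16A3 had 8.18, 8.33, 6.45 and 9.49 CPM at 1 h and 4.94, 5.54, 6.69 and 5.1 CPM at 4 h, groups that overlapped through replicate 3. GAPDH was at 3625 and 3579 CPM (-0.02, adjusted p = 0.80).

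By 8 h in DMSO the hypoxia list was no longer divided. Against 1 h, 22 of 35 were then higher (62.9% against 22.6% of all genes) and 2 lower (5.71% against 24.7%). The median was 0.57 and the range -0.38 to 5.95. ADM reached 33.1, 33.5, 39.9 and 44.8 CPM at 8 h, and DDIT4 reached 528 CPM on average. VEGFA stood at 88.9, 85.8, 87.8 and 89.8 CPM, each above every 4 h library. Several genes that were lower at 4 h stood above their 1 h level at 8 h. PPFIA4 had 23.6, 17.9, 20.2 and 25.4 CPM at 8 h (0.98 ± 0.12 against 1 h), SLC16A3 had 23.7, 22.9, 23.3 and 26.2 CPM (1.56 ± 0.10) and PDK1, which turns pyruvate away from mitochondria, had 103, 108, 109 and 107 CPM (0.55 ± 0.05). PFKFB4 went from 15 to 9.9 and then to 61.7 CPM. EGLN3, at 5.23 CPM, was not called against 1 h (0.11, adjusted p = 0.52), and GBE1 was still lower (-0.28). In the glycolysis list 12 of 25 (48%) were above 1 h at 8 h and 2 (8%) below, with a median of 0.11.

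**Figure D4:**
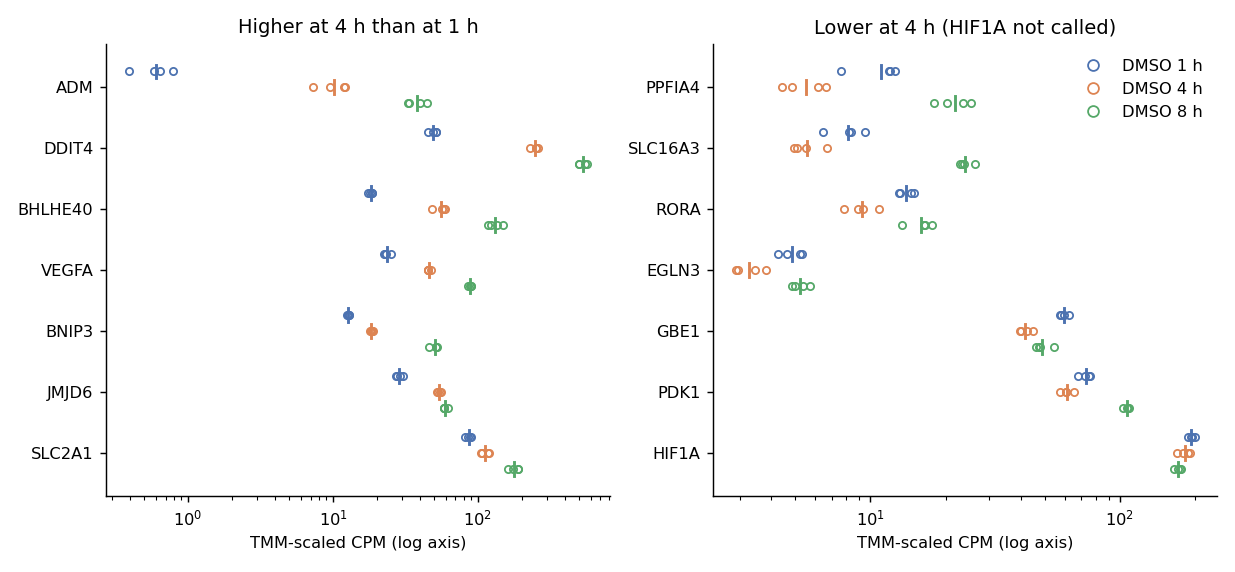
Level in CPM (log axes) of hypoxia and glucose genes in every library of DMSO 1 h, 4 h and 8 h, with a bar at each group mean; the left panel holds genes higher at 4 h and the right panel genes lower at 4 h, plus HIF1A. On the left the groups step upward with time, while on the right PPFIA4, SLC16A3 and PDK1 are lowest at 4 h and highest at 8 h.

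The core of the hypoxia response element, ACGTG, is short and common. On either strand it occurred in 16 of 29 windows of the hypoxia list (55.2%) and in 24.6% of all 8103. Of all 1991 genes with the word, 16.4% were called higher at 4 h, close to the 16.2% of all genes with a window. BHLHE40 is shown because its window holds it at 3 places (chr3:4979187-4979436, plus strand, GRCh38.p14, RefSeq, 5′ to 3′, words in capitals). The first, CACGTG, reads the same on both strands and counts as 2 overlapping matches that begin 245 and 244 bases before the start, and the other matches begin 174 and 149 bases before it.
BHLHE40: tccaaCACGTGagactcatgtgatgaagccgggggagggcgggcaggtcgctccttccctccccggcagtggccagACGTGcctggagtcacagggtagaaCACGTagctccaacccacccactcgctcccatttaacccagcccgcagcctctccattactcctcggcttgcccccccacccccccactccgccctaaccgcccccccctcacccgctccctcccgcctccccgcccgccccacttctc

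Genes of signalling moved in smaller sets. Of 16 measured immediate-early genes, 8 were higher (50% against 16% of all genes) and 2 lower (12.5% against 19.1%), with a median of 0.19. EGR1 had 7.6, 6.11, 6.51 and 6.63 CPM at 1 h and 13.4, 13, 13.8 and 14 CPM at 4 h, without overlap. Besides EGR1, NR4A1 and KLF10, the messenger-decay gene ZFP36L2 rose from 698 to 959 CPM (0.46) and KLF6 by 0.39, while ID3 and PPP1R15A (-0.59), which restarts protein synthesis after stress, fell. Of 14 Notch receptors and targets, 7 were higher (50%) and 1 lower (7.14%), with a median of 0.14. With upper-quartile factors 6 were higher and 2 lower. DTX1 had 17.4, 18.6, 18.6 and 20 CPM at 1 h and 41.1, 44.5, 43 and 44.6 CPM at 4 h, and NOTCH3, both receptor and target, went from 17 ± 1.02 to 24.8 ± 0.967 CPM (0.55). HES1, the classical target, rose by 0.15, whereas HES6 fell by 0.59. NOTCH1, at 856 ± 70.2 and 934 ± 66 CPM, was called higher (0.13, adjusted p = 0.036), but its groups overlapped. Without any of 4 single libraries (DMSO 1 h replicate 1 or 2, DMSO 4 h replicate 1 or 4), or with upper-quartile scaling, NOTCH1 was not called. MYC, a target of Notch in T-cell leukaemia, was at 719 and 747 CPM (0.06, adjusted p = 0.28).

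FOXO-induced genes and amino acid response genes leaned the other way. Of 16 measured FOXO-induced genes, 8 were lower (50% against 19.1% of all genes) and 0 higher (median -0.10), but 2 were called higher with DESeq2, with RLE factors and without scaling factors. Besides FBXO32, they included the lymphocyte egress receptor S1PR1 (-0.60), RICTOR (-0.39), BCL6 (-0.33), INSR (-0.32), CITED2 (-0.27) and the apoptosis gene BCL2L11 (-0.17). S1PR1 had 48.5, 55.6, 53.5 and 56 CPM at 1 h and 36.4, 31.4, 36.7 and 36.3 CPM at 4 h, with no overlap. BCL6 did overlap, and it was not called by DESeq2, nor without DMSO 1 h replicate 2 or 3 or DMSO 4 h replicate 3 or 4. Of 29 genes of the ATF4 amino acid response, 13 were lower (44.8% against 19.1% of all genes) and 3 higher (10.3% against 16%), with a median of -0.10. SLC7A11, SLC7A5 (-0.36), SLC7A1 (-0.29) and SLC38A2 (-0.21) are amino acid carriers, and ASNS, PSAT1 (-0.26) and CBS (-0.24) are synthesis enzymes, CBS being uncertain with 56.2% of its words shared. ASNS fell from 12.1 to 9.52 CPM (-0.35) and is uncertain, since 42.4% of its 32-base words are shared with other genes. The 3 that rose were DDIT4, STC2 and CEBPG (0.17), and DDIT4 and STC2 are members of the hypoxia list as well.

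In the unfolded protein response, HSPA5, the main chaperone of the endoplasmic reticulum, had 312, 321, 311 and 292 CPM at 1 h and 386, 337, 333 and 335 CPM at 4 h (0.17 ± 0.05). The 4 h value was highest in replicate 1, and the groups did not overlap. Of 24 genes in that list, 4 were higher (16.7%, near the 16% of all genes) and 8 lower (33.3% against 19.1%; median -0.03), the sensor gene ERN1 (-0.44) and the folding genes DNAJC3 and EDEM1 (-0.32 each) being the lowest. Of 11 JAK-STAT targets, 3 were higher (27.3%) and 5 lower (45.5%), but with RLE factors or without scaling factors 3 were higher and 2 lower: PIM1 fell by 1.11, while the related kinase gene PIM3 rose by 0.37. ETV5, an ERK output gene, fell by 0.71, and the ERK phosphatase genes DUSP6 (0.58, uncertain with 40.5% of exon bases opposite another gene) and DUSP7 (0.33) rose. Of 22 p53 targets, 3 were higher (13.6%) and 5 lower (22.7%), close to the 16% and 19.1% of all genes, from ZMAT3 at -1.05 to the DNA polymerase gene POLH at 0.60.

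Genes of T-cell identity were called about as often as all genes. Of 36 T-lineage genes, 6 were higher and 6 lower (16.7% each, against 16% and 19.1% of all genes; median -0.02). CD4 had 17.1, 15.5, 16.1 and 16.6 CPM at 1 h and 10.2, 10.9, 12.1 and 10.8 CPM at 4 h (-0.57 ± 0.09). CD38 (-0.57), TOX (-0.38) and DNTT, the terminal transferase of immature lymphocytes (-0.38), also fell without overlap. CD1D (0.29), TCF7 (0.25), GATA3 (0.25) and the receptor chain genes CD247 (0.25), CD3G (0.22) and CD3D (0.13) rose. RAG1 was at 157 and 149 CPM (-0.08, adjusted p = 0.25). Among factors of the leukaemia's own circuit, MYB rose from 895 ± 12.1 to 1080 ± 31.5 CPM (0.27), and ERG fell from 143 to 109 CPM (-0.39). Of 12 genes in that circuit list, 5 were higher (41.7% against 16% of all genes) and 1 lower (8.33%), with 3 higher under upper-quartile factors. VPREB1, a pre-B-cell receptor gene in the B-lineage list, fell by 0.55 and was the single called gene of the 4 tested there with TMM factors (with RLE factors or without scaling factors 1 other was called higher).

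The machinery of protein synthesis and respiration showed few calls. Of 69 ribosomal protein genes, 0 were higher and 4 lower (2 with DESeq2; median -0.01), the 4 being RPL39 (-0.44), RPS3A (-0.43), RPL15 (-0.16) and RPL27A (-0.15). RPL39 at 15 and 11.1 CPM overlapped between the groups and was not called by DESeq2, nor without DMSO 1 h replicate 1, 2 or 4 or DMSO 4 h replicate 1, 3 or 4. RPS3A is uncertain with 32.4% of its words shared. Of 65 respiratory chain genes, 4 were higher and 1 lower (median 0.04), with NDUFV3 at 0.34 the largest. Of 36 genes of ribosome biogenesis that MYC drives, 3 were higher and 5 lower (median -0.01), POLR1B at 0.31 being the highest. That balance turned with the scaling, to 6 higher and 3 lower with DESeq2 and to 5 and 3 with RLE factors or without scaling factors. These shares lie below the 35.1% of all genes called in either direction. Of 19 histone demethylase and related oxygenase genes, 6 were higher and 6 lower (31.6% each, against 16% and 19.1% of all genes). KDM6B rose from 48.6 to 71.6 CPM (0.56) and KDM5B from 92.4 to 122 CPM (0.40), and JMJD1C fell by 0.36. Of 15 clock genes 5 were higher (33.3% against 16%) and 2 lower (13.3% against 19.1%), with BHLHE40, TEF (0.34) and PER1 (0.25) among the former and RORA the lowest.

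The same interval was then compared with cells given SK-3-91, whose libraries share no sample with the DMSO groups. Under SK-3-91, 8230 genes (83.8%) were called between 4 h and 1 h, and the test of the difference between the changes called 7901 genes (80.4%), 3986 higher and 3915 lower under SK-3-91. That split depends on the scaling: without scaling factors it was 2672 and 5198, with the median of all genes at -0.262 in place of 0.014, so values here are relative to the other genes. SLC30A1 showed the widest gap among the largest DMSO changes (difference 4.08 ± 0.13, SE, edgeR adjusted p = 8.4e-27). It rose under SK-3-91 from 6.48 to 29.8 CPM and fell in DMSO from 20 to 5.45 CPM. At 1 h its mean under SK-3-91 was therefore already far below that in DMSO. ADM stood at 0.394 and 0.569 CPM at 1 h and 4 h of SK-3-91 (difference -3.54 ± 0.66). Both means lie within the range of the DMSO 1 h libraries, where ADM rested on 6 to 12 counted reads. The size of its difference is therefore uncertain. DTX1 fell under SK-3-91 (difference -2.08 ± 0.09), and CREBRF rose (2.90 ± 0.14). CREBRF also started lower, at 7.03 CPM at 1 h of SK-3-91 against 15.2 CPM at 1 h of DMSO. For DDIT4 the changes were close, 2.05 against 2.33 (difference -0.28 ± 0.11, adjusted p = 0.016). For ID3, -1.14 against -1.07 (difference -0.07 ± 0.19), and for RGS16 (-0.16 ± 0.33) no difference was called, which does not show that the changes were alike. ID3 levels were far apart at both times, 6.12 and 2.77 CPM under SK-3-91 against 41.3 and 19.7 CPM in DMSO.

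At the level of groups, ribosomal protein genes showed the most one-sided difference, with all 69 higher under SK-3-91 than in DMSO against 40.6% of all genes (median difference 0.97). Of 65 respiratory chain genes 56 were higher and 5 lower (median 0.79), and of 10 T-cell activation genes 8 were lower and 1 higher (median -0.94), against 39.9% lower over all genes. Without scaling factors those medians were 0.70, 0.51 and -1.21. The change of G2/M genes was lower under SK-3-91 for 37 of 55 (67.3% against 39.9% of all genes). It was higher for 13 (23.6% against 40.6%), with a median difference of -0.54. Across the scalings tried, 37 to 42 were lower and 5 to 13 higher. CCNB1 changed by -0.67 under SK-3-91 and 0.48 in DMSO, and CENPA by -0.99 and 0.70. PRC1 (1.71 under SK-3-91, 0.24 in DMSO) and FAM83D (1.5 and 0.36) were exceptions, PRC1 being uncertain with 54.9% of its words shared. In the G1/S list 30 of 49 were lower (61.2% against 39.9% of all genes) and 16 higher (32.7% against 40.6%) in the difference. The scalings gave 30 to 34 lower and 9 to 16 higher. For E2F1, at -0.67 under SK-3-91 and -0.60 in DMSO, no difference was called (-0.07 ± 0.06, edgeR adjusted p = 0.28), while E2F7 rose by 0.31 under SK-3-91. E2F7 was nevertheless below DMSO at both times, with 54.1 and 67 CPM under SK-3-91 against 161 and 100 CPM. Of 21 heat-shock genes 10 were lower (47.6% against 39.9% of all genes) and 6 higher (28.6% against 40.6%) in the difference. With the scalings tried, 10 to 15 were lower and 4 to 6 higher. DNAJB1 changed by 0.10 under SK-3-91 (difference -0.98 ± 0.07), whereas DNAJB4 changed by 1.10 (difference 0.17 ± 0.16, edgeR adjusted p = 0.32). Of 24 sterol genes 10 were higher (41.7%) and 11 lower (45.8%), shares close to those of all genes, and values reached from MSMO1, which rose by 2.70 under SK-3-91, to MVK, which fell by 2.75.

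**Figure D5:**
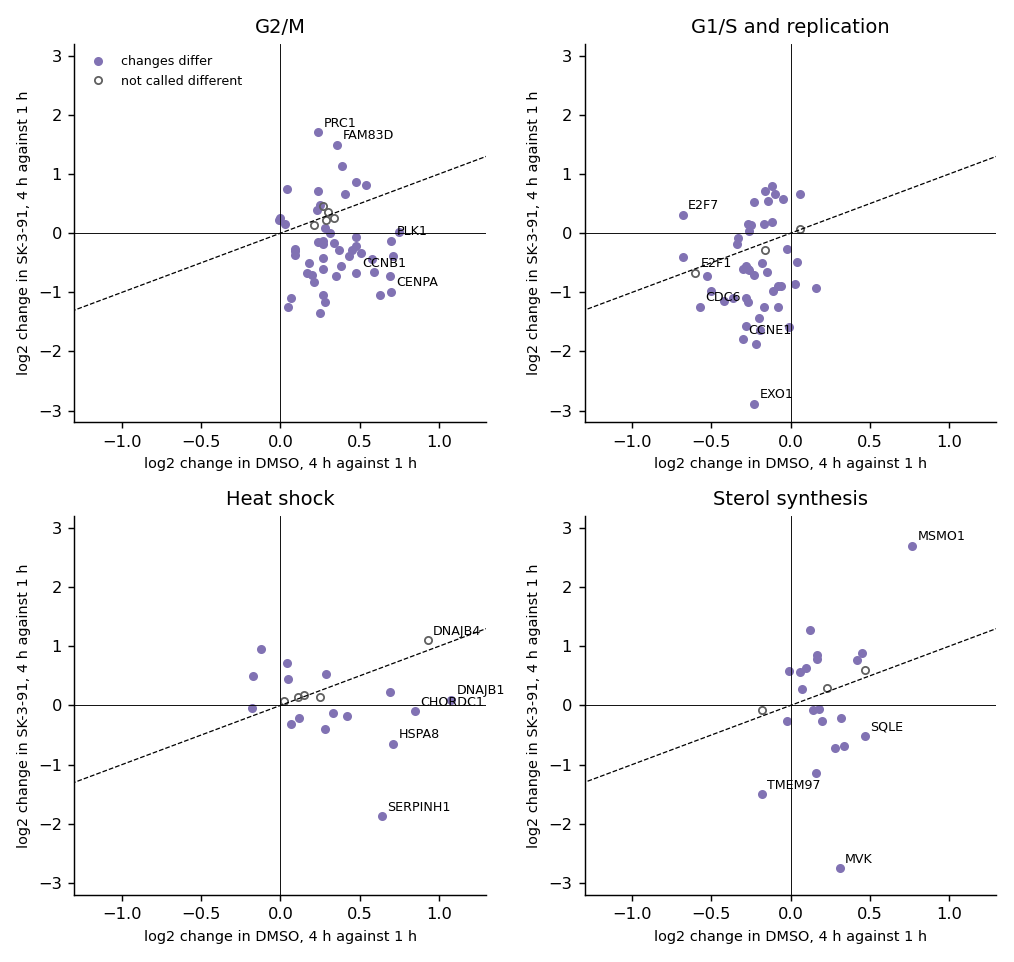
log2 change from 1 h to 4 h under SK-3-91 (vertical axes) against that in DMSO (horizontal axes) for measured members of 4 lists, filled where the changes were called different at an adjusted p under 0.05; the dashed line marks equal changes. Most G2/M members lie right of 0 and below the line, and DNAJB4 and E2F1 are open points close to it.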

How the data were processed

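The authors' deposited table gives whole-number counts of reads per Entrez gene for 24 libraries, not normalized. The submitters' processing notes name edgeR and the build hg19. Aligner, counter and strand setting are not given in the sources used here. In the deposited table the gene with the fewest reads averaged 32.04 per library, so the table holds few low genes. A second deposited table, named for RPKM, turned out to hold log2 values that are a straight line in the count before the logarithm (largest relative gap 3.9e-07%). Those deposited log2 values carry no gene length and were used as they stand in limma-trend.

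The model was fitted to the counts in edgeR 4.0.16 (R 4.3.3) with TMM factors and 1 mean for each of 6 groups over 24 libraries, leaving 18 residual degrees of freedom. The filterByExpr step took out 0 genes. Quasi-likelihood F tests were adjusted by Benjamini-Hochberg over all 9822 genes at 0.05. The standard error of a log2 change was taken as its size over the root of F (median 0.057 from 1 h to 4 h). TMM makes each change relative to the other genes, not per cell. Depth was 14.008 to 14.55 megareads counted per library at 1 h and 4 h in DMSO. Under SK-3-91 it averaged 13.612 megareads at 1 h and 10.78 megareads at 4 h. TMM factors under SK-3-91 were 1.065 to 1.076 at 1 h and 0.884 to 0.901 at 4 h. Alternatives are listed in the closing section, with DESeq2 1.42.0 and limma 3.58.1 among them. The fit was also run on simulated counts with known changes in DMSO at 4 h, the outcome of which is not reported here.

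The comparison, the 36 gene lists and the naming rule were chosen with earlier results of these data known. The rule took the 12 largest called changes each way with all libraries separated and a mean of at least 5 CPM in the higher group, up to 3 called members per list with at least 2 CPM, and 30 fixed genes, of which 29 were measured and TXNIP was not analysed here. It named 118 genes, some of which are not reported here. Further list members are given as examples and were chosen after their values were seen. Lists are described by counts and medians with no test of the list, and some share members. Genes sharing at least 20% of their 32-base words with other genes, or of their exon bases with exons on the opposite strand (GENCODE 29), are called uncertain, 90 of the 719 named genes and list members checked. Replicate numbers shared by titles were not taken to pair the samples. Promoter windows come from RefSeq on GRCh38.p14 and were matched by Entrez gene ID for 82.5% of genes.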

Additional observations from a re-analysis of the deposited data

Results flagged for a closer look

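In 236 groups of 4 libraries (118 named genes at 1 h and at 4 h in DMSO), 10 had a library whose gap to the nearest other exceeded Dixon's 95% limit, 5 at each time. Chance flags about 1 in 20 groups, and no library accounted for more than 2 of the 10. At 1 h they were NR4A1 in replicate 1 (8.12 CPM, high), PPFIA4 in replicate 2 (7.61 CPM, low), EDEM1 in replicate 3 (201 CPM, high), BCL2L1 in replicate 3 (197 CPM, low, uncertain because 43% of its exon bases lie opposite exons of the other strand) and SQLE in replicate 4 (187 CPM, low). At 4 h they were CD69 in replicate 1 (24 CPM, low), HSPA5 in replicate 1 (386 CPM, high), S1PR1 in replicate 2 (31.4 CPM, low), HES6 in replicate 2 (5.16 CPM, low) and VEGFA in replicate 3 (47.1 CPM, high).

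Among the 5 largest increases and 5 largest decreases in DMSO, 9 genes changed differently under SK-3-91 by the test of the difference itself (edgeR adjusted p under 0.05; SK-3-91 change minus DMSO change, log2). The change was lower under SK-3-91 for ADM (-3.54, with low levels at both times of SK-3-91), DTX1 (-2.08), BHLHE40 (-0.69) and DDIT4 (-0.28). It was higher for SLC30A1 (4.08), CREBRF (2.90), SLC7A11 (1.83), SDK2 (0.80) and FBXO32 (0.45). At 1 h the SK-3-91 mean was already below the DMSO mean for SLC30A1 (6.48 against 20 CPM) and CREBRF (7.03 against 15.2 CPM). The same held for SLC7A11 (9.22 against 20.9 CPM) and FBXO32 (5.89 against 15.8 CPM), but not for SDK2 (33.7 against 26.4 CPM). These 1 h gaps were not tested here.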

How the results depend on the processing

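Of the 111 named genes called, 103 stayed on their side of the threshold in every alternative other than the minimum fold, and 0 changed sign in any. The other 8 were ACSS2, BCL2L1, BCL6, LAG3, NDUFV2, NOTCH1, NQO1 and RPL39. With a minimum fold of 1.5 in the test, 40 genes passed (19 higher, 21 lower), with 0 G2/M, 0 G1/S and 0 sterol members and 3 heat-shock members. Other settings gave 3238 calls (limma-trend on the deposited log2 values) to 3972 (replicate block in the 8 DMSO libraries) against 3450, and moved the split from 1573 higher and 1877 lower to 1461 and 2016 with upper-quartile factors, 1753 and 1677 with RLE factors, 1775 and 1650 without scaling factors, 1759 and 1656 with DESeq2, and 1997 and 1809 in the 8 libraries alone. Without scaling factors, SK-3-91 at 4 h against 1 h gave 2722 higher and 5568 lower in place of 4037 and 4193.

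Leaving out 1 library at a time gave 3013 to 3241 calls (1393 to 1478 higher, 1615 to 1785 lower), 46 to 47 higher G2/M, 34 to 36 lower G1/S, 12 to 15 higher heat-shock and 14 to 17 higher sterol members, and a difference in counted reads of 0.239 to 0.34 megareads. Same-numbered libraries of 1 h and 4 h correlated at -0.08, 0.178, -0.111 and 0.215 in their deviations, so the numbers were not taken to pair samples. With the replicate block over all libraries 3438 genes were called (1566 higher, 1872 lower), and in the 8 libraries 2077 higher and 1895 lower.

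Depth limits the lowest genes: ADM rested on 6 to 12 counted reads per library at 1 h. Fits to RPKM values with a pseudocount were not run, since the deposited table already holds log2 values.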

Other observations

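Genes whose symbol begins with ZNF, the zinc-finger family of DNA-binding proteins, were looked at after their values were seen, so no test is given. Of 352 such genes measured, 40 (11.4%) were higher and 135 (38.4%) lower at 4 h than at 1 h in DMSO, against 16% and 19.1% of all genes, with a median log2 fold change of -0.11. At 8 h, against the same 1 h libraries, 44 were higher and 154 lower, with a median of -0.14. Over all genes 22.6% were called higher and 24.7% lower at 8 h.

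Among interferon-stimulated genes, IFIT1 went from 5.66 to 8.11 CPM (log2 fold change 0.52) and its neighbour in function IFIT2 from 13.7 to 9.67 CPM (-0.50), both separated between the groups. Of 27 such genes, 2 were higher (7.41%) and 4 lower (14.8%) at 4 h, below the 16% and 19.1% of all genes. ARRDC3 and ARRDC4, arrestin-domain genes known to answer to glucose, also went apart: ARRDC3 rose from 35.9 to 44.1 CPM (0.30), while ARRDC4 fell from 24.4 to 17.8 CPM (-0.45) and stood at 12, 11.3, 11.8 and 13 CPM at 8 h.

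In the remaining lists, higher and lower members numbered 2 (20%) and 5 (50%) of 10 T-cell activation genes, against 16% and 19.1% of all genes, with the checkpoint receptor genes PDCD1 (0.44) and LAG3 (-0.40) moving apart, and 3 (11.1%) and 7 (25.9%) of 27 genes of nucleotide and polyamine synthesis. They numbered 3 and 3 of 17 NRF2 genes (17.6% each), 3 (20%) and 1 (6.67%) of 15 NF-kB targets and 3 (25%) and 2 (16.7%) of 12 ERK output genes. In the BCL-2 family 1 of 13 was higher (7.69%), the effector gene BAK1 (0.35), and 2 were lower (15.4%), both shares below those of all genes. Across the scalings tried, 1 to 2 of that family were higher and 1 to 3 lower. Of 4 histone genes 0 were higher and 2 lower (50%). LAG3 was not called without DMSO 1 h replicate 2 or without DMSO 4 h replicate 1 or 4.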
